A study of Mus musculus with 16 samples.

Results

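The genes described here are 45 members of the cell cycle machinery: genes of DNA replication and mitosis, cyclins and their kinases, and the transcription factors and inhibitors that act on them. They were taken by name from a list of replication, mitosis and cyclin genes. All 45 were found by symbol among the 55573 genes of the count table, and all 45 passed the filter on low counts that left 13711 genes for testing. By role they comprised 11 replication genes, 6 G1 and G1/S cyclins and kinases, 20 genes of G2 and mitosis, 4 transcription factors and 4 inhibitors.

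RNA had been sequenced from OT1 cells, mouse CD8 T cells of the C57BL/6 background with a transgenic receptor for an ovalbumin peptide, after their transfer into tumour-bearing mice. The mice received Foxp3UP and Mock CD8 T cells as a mixture. After 5 days these cells were recovered from the tumours by sorting live CD8 cells that carried CD45.1 and/or CD90.1. The titles define 4 groups of 4 libraries each, which form a UP arm of Foxp3UP against MockUP and a DN arm of Foxp3DN against MockDN. Foxp3 is the transcription factor that defines regulatory T cells, and all groups share the OT1 receptor, the strain, the transfer and the tumour. Nothing in the labels gives the meaning of UP and DN, how Foxp3 was imposed, which tumour was used or whether the replicates came from separate mice. The p-values therefore measure only the spread between these samples, which may be technical. The sample numbers in the titles place replicates 1 and 2 of every group before replicates 3 and 4, and no label says what separates these sets.

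Library totals ran from 9389477 to 13226590 counts. Levels are given as CPM, the counts of a gene scaled to a common library size by edgeR's TMM factors, and tests are edgeR's quasi-likelihood F test with Benjamini-Hochberg adjustment over all genes tested, with a gene called at an adjusted p under 0.05. Foxp3 itself, the gene the groups are named for, was higher in Foxp3UP relative to MockUP by 0.92 ± 0.17 SE on the log2 scale (edgeR adjusted p = 0.00233). In Foxp3DN relative to MockDN it stood at -0.33 ± 0.17 and was not called. MockUP 2 stood apart from the other libraries on the second principal component, which held 18.6% of the variance. All 7 T cell markers were present, with a summed level of 3571 to 6585 CPM that was lowest in MockUP 2. Of the markers of CD4 T cells, Cd4 reached at most 0.759 CPM in any library, whereas Zbtb7b stood at 5.43 to 12.5 CPM. Among markers of other cells, Ms4a1 and Pax5 of B cells and Cdh5 of endothelium were at 0 in every library. The B cell markers still summed to 3.80 to 7.92 CPM, most of it Cd79b. The endothelial markers summed to 47.6 to 68.4 CPM, nearly all of it Pecam1. Melanocyte markers summed to 18.4 to 110 CPM and myeloid markers to 38.2 to 79.7 CPM.

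The cell cycle is driven by kinases that need a cyclin partner. In G1, D-type cyclins with Cdk4 or Cdk6, followed by cyclin E, release E2F transcription factors from the retinoblastoma protein, and E2F switches on the replication genes. Later in the cycle Mybl2 and Foxm1 switch on the genes of mitosis, and inhibitors such as p27 (Cdkn1b) and p18 (Cdkn2c) hold the kinases back. Activated CD8 T cells are known for fast division, so the transcripts of replication and mitosis are commonly read as a sign of how many cells in a sample are cycling. In bulk samples such as these, fewer cycling cells and less of a transcript per cell cannot be told apart.

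Promoter sequences of the members were set beside their roles. RefSeq windows (GRCm38.p6, 250 bases before to 50 after the start site) matched 36 of the 45 by symbol. The 180 bases before the start site are shown for 4 mitosis genes with large differences between libraries, for Mcm5 and Mcm6 of the replication helicase, and for Ccnd3, the member that differed between Foxp3UP and MockUP. Capitals mark, on either strand, the CHR (TTTGAA or TTTAAA, the element read by the complexes that time mitotic genes), the CCAAT box, and 3 E2F-like words, namely TTCCCGC as well as TTGGCGC and also TTCGCGC. These words overlap in places, as where an E2F-like word runs into a CCAAT box in Ccnb1. In Ube2c, Ccnb1 and Cdk1 the last 31, 84 and 26 of the printed bases lie inside the gene as the count table bounds it.
Ube2c (chr2:164769749-164769928, plus strand): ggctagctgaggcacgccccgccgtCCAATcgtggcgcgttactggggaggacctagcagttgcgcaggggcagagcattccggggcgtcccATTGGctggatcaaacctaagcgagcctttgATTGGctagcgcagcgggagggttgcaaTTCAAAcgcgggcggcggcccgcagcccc
Plk1 (chr7:122159255-122159434, plus strand): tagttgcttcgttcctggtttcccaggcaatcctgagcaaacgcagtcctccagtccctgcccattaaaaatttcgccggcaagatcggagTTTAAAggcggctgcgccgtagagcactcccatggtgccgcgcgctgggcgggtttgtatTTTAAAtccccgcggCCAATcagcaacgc
Ccnb1 (chr13:100786487-100786666, minus strand): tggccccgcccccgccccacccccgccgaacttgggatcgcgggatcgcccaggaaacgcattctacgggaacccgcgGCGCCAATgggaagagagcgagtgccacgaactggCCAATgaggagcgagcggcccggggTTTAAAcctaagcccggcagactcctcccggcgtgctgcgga
Cdk1 (chr10:69352913-69353092, minus strand): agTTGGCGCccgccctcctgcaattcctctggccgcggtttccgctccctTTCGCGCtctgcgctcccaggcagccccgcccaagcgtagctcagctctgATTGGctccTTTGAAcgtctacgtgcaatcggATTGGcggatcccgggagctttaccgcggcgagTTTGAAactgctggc
Mcm5 (chr8:75109329-75109508, plus strand): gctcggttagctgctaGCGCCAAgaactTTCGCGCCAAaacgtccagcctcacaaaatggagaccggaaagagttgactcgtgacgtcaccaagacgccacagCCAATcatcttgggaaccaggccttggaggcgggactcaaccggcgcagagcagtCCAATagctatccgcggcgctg
Mcm6 (chr1:128359706-128359885, minus strand): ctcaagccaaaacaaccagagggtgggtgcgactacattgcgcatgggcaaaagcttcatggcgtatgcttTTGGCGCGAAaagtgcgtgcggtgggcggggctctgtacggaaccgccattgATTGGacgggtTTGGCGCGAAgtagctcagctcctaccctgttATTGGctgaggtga
Ccnd3 (chr17:47504871-47505050, plus strand): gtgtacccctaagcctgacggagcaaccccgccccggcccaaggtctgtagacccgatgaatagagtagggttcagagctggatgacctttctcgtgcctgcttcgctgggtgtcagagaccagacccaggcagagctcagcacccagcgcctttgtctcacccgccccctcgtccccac

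Of the mitosis genes, 15 of the 16 with a window held a CHR, Bub1 being the exception, and 15 held a CCAAT box. The CHR words occur in 27.6% of all 32851 windows and in 19.8% of the 11885 windows of genes tested here. For CCAAT these shares are 37.4% and 37.9%. Of the 9 replication genes with a window, 7 held an E2F-like word, 7 a CCAAT box and 2 a CHR, where an E2F-like word stands in 8.07% of all windows and 14.4% of those of genes tested. Among the 4 G1 and G1/S genes with a window, only Ccne1 held any of these words, a CHR, and the Ccnd3 window held none. Of the 3 transcription factors with a window, 0 held a CHR, and only E2f2 held an E2F-like word. Of the 4 inhibitors with a window, Cdkn1b and Cdkn3 held a CHR and a CCAAT box, and Cdkn2c held an E2F-like word. A match is a description of the letters and not a measured binding site, and a missing match covers only this window.

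Levels differed widely among the members. Per kilobase of exonic length and averaged over the 16 libraries, Mcm6, a subunit of the MCM helicase that unwinds DNA, and Pcna, the sliding clamp of the DNA polymerases, stood highest at 103 CPM per kb each. Cdk4, the kinase partner of D-type cyclins, followed at 78.3 CPM per kb and the inhibitor Cdkn1a (p21) at 73.4 CPM per kb. At the low end, Cenpf, a kinetochore protein, was at 1.20 CPM per kb and Cdkn3, a phosphatase acting on cyclin-dependent kinases, at 2.71 CPM per kb. The transcription factors lay between 3.23 CPM per kb for Foxm1 and 8.78 CPM per kb for E2f1.

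**Figure D1:**
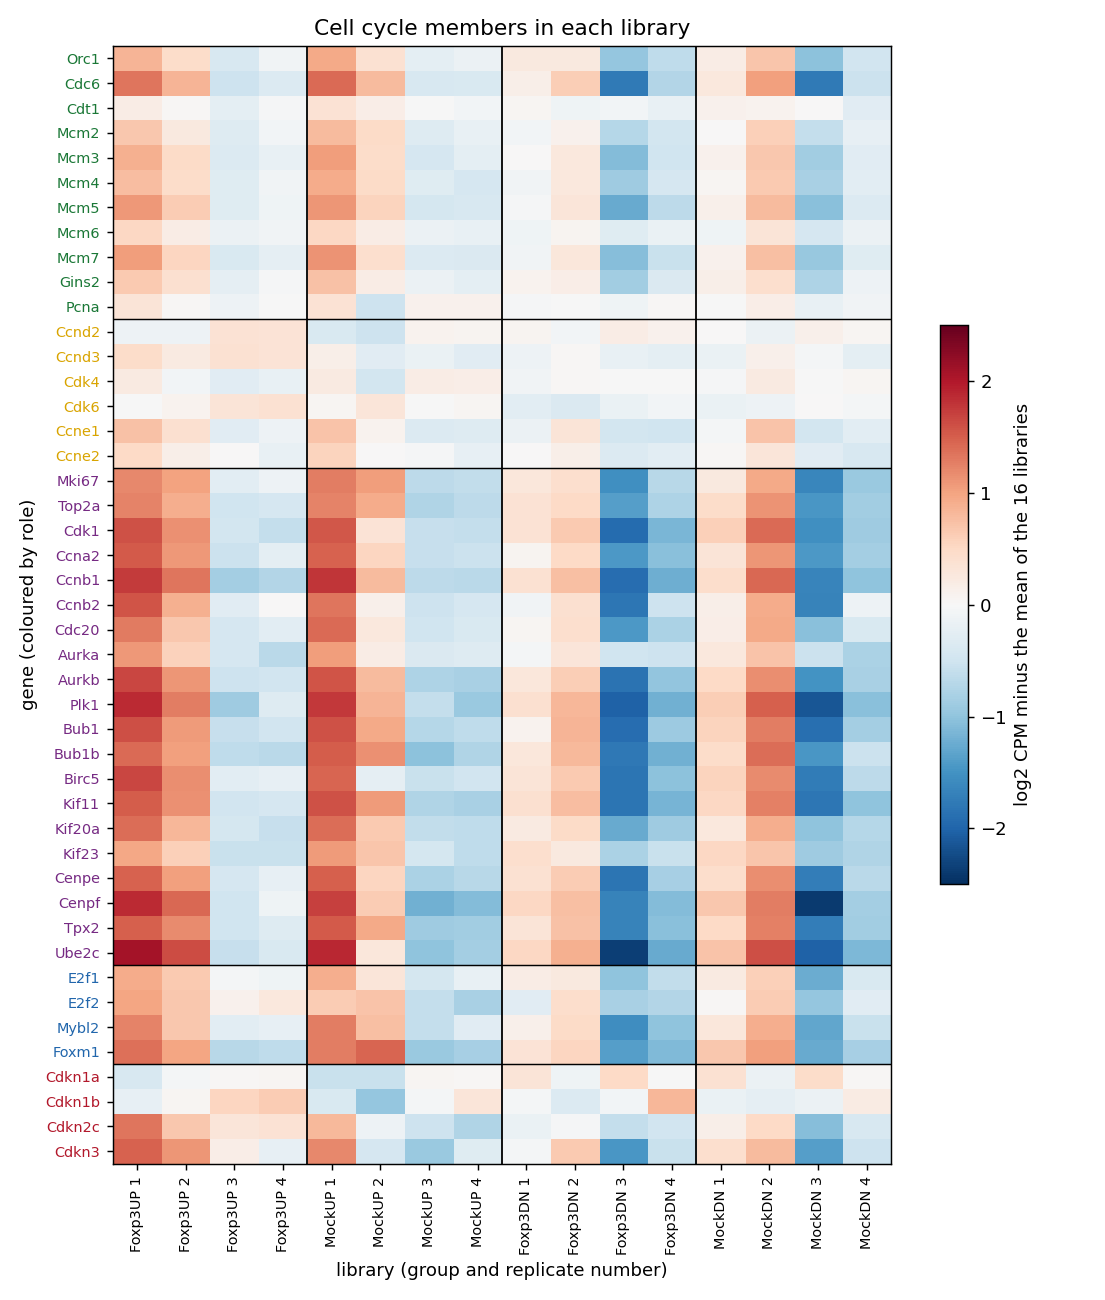
Each cell of the map is a gene's log2 CPM in 1 library minus that gene's mean over the 16 libraries, with genes in rows by role and libraries in columns by group. Within each of the 4 groups the mitosis genes are above their mean (red) in replicates 1 and 2 and below it (blue) in replicates 3 and 4, apart from Birc5 in MockUP 2, Ccnb2 in Foxp3DN 1 and Foxp3UP 4, and Aurka in Foxp3DN 1, whereas Ccnd2, Ccnd3, Cdk4, Cdk6 and Cdkn1a are pale in most libraries.

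The members were first read between the replicate sets. In a fit with a term per group, 38 of the 45 were higher in replicates 1 and 2 than in replicates 3 and 4 and 2 were lower (edgeR adjusted p under 0.05), so that 88.9% of the members were called against 25.9% of all 13711 genes tested. For the higher direction alone the shares were 84.4% of the members and 13.4% of all genes. Their median log2 difference was 1.31, where the median over all genes tested was -0.01. The libraries of the sets did not overlap for 28 members (62.2%), all of them higher in replicates 1 and 2, against 3.64% of all genes tested. That the sets differ in proliferation genes was already known from earlier results of these data, so the split is described here and is no independent evidence.

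All 20 mitosis genes were higher in replicates 1 and 2, by 1.06 to 2.45 on the log2 scale. Ube2c (chr2:164769898-164778822 in mm10, the build of all coordinates here), the ubiquitin-conjugating enzyme of the anaphase-promoting complex, ran from 27.9 to 97.7 CPM with a median of 56.7 in replicates 1 and 2, against 4.37 to 17.6 CPM with a median of 10.9 in replicates 3 and 4. Its fold difference was 5.48 (log2 2.45 ± 0.22 SE, edgeR adjusted p = 5.24e-07), the largest of the 45. Every library of replicates 1 and 2 lay above every library of replicates 3 and 4.

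The same separation held for Plk1 (chr7:122159439-122169873), a kinase that drives entry into and passage through mitosis. It had 27.0 to 75.2 CPM (median 43.6) in replicates 1 and 2 and 4.51 to 16.3 CPM (median 10.2) in replicates 3 and 4, a log2 difference of 2.30 ± 0.20. Cyclin B1 (Ccnb1, chr13:100778650-100786570), the partner that activates Cdk1 for mitosis, had 46.0 to 123 CPM (median 75.5) against 9.33 to 22.3 CPM (median 18.6), a difference of 2.22 ± 0.17. Cdk1 (chr10:69335146-69352938) itself had 32.4 to 77.3 CPM (median 48.2) against 6.56 to 18.3 CPM (median 15.2) and differed by 1.97 ± 0.18. The promoters of these 4 genes are those printed above, each with a CHR and a CCAAT box.

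Genes of the spindle and kinetochore moved in the same direction. Log2 differences were 2.23 for Cenpf, 2.07 for Kif11, the motor that separates the spindle poles, 1.99 for Tpx2, an activator of Aurora A on the spindle, and 1.80 for Cenpe, a kinetochore motor. The spindle checkpoint genes Bub1 and Bub1b differed by 2.01 and 2.03. Of the chromosomal passengers, which correct kinetochore attachment, the kinase Aurkb differed by 1.95 and Birc5 (survivin) by 1.74. Kif20a and Kif23, motors of cytokinesis, differed by 1.57 and 1.31.

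Among the remaining mitosis genes the differences were 1.70 for Top2a, the topoisomerase that untangles chromosomes, 1.69 for Ccna2 (cyclin A2), 1.35 for Cdc20, an activator of the anaphase-promoting complex, 1.31 for Ccnb2 (cyclin B2) and 1.06 for Aurka (Aurora A). Mki67 (Ki-67), the common marker of cycling cells, had 57.6 to 118 CPM (median 95.2) in replicates 1 and 2 and 15.6 to 44.3 CPM (median 30.4) in replicates 3 and 4, a 3.04-fold difference. For 18 of the 20 the sets did not overlap. The exceptions were Ccnb2, with 55.5 to 176 CPM in replicates 1 and 2 and 16.7 to 59.2 CPM in replicates 3 and 4, and Birc5, with 42.2 to 159 CPM against 13.9 to 43.0 CPM. The lowest Birc5 value of replicates 1 and 2 was that of MockUP 2.

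Of the 11 replication genes 10 were higher in replicates 1 and 2. Their median log2 difference was 0.88, beside 1.87 for the mitosis genes, and the contrast between the roles was not tested. Cdc6 (chr11:98907801-98923940), which loads the MCM helicase onto origins, had 27.4 to 66.7 CPM (median 43.7) in replicates 1 and 2 against 7.13 to 19.4 CPM (median 17.1) in replicates 3 and 4. Its fold difference was 3.04 (log2 1.61 ± 0.18 SE, edgeR adjusted p = 4.19e-06), the largest of the 11, and the sets did not overlap. The MCM subunits differed by 1.15 for Mcm5, 1.06 for Mcm7, 0.98 for Mcm3, 0.88 for Mcm4, 0.72 for Mcm2 and 0.40 for Mcm6. Orc1, of the origin recognition complex, differed by 1.01, Gins2, of the active helicase, by 0.70, and Cdt1, the partner of Cdc6, by 0.22.

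Pcna was the replication gene without a call. It had 171 to 317 CPM (median 247) in replicates 1 and 2 and 215 to 264 CPM (median 237) in replicates 3 and 4, and the sets overlapped. The log2 difference was 0.09 ± 0.10 (edgeR adjusted p = 0.519) with a 95% interval of -0.11 to 0.30. The lowest value was that of MockUP 2, and without that library Pcna was called at 0.19 ± 0.06 (adjusted p = 0.0112).

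All 4 transcription factors were higher in replicates 1 and 2. Foxm1 (chr6:128362967-128376146), which drives genes of G2 and mitosis, had 18.5 to 40.5 CPM (median 29.6) in replicates 1 and 2 and 5.55 to 9.33 CPM (median 7.89) in replicates 3 and 4. With a log2 difference of 1.95 ± 0.11 (edgeR adjusted p = 5.74e-09) it had the smallest adjusted p of the 45, and its sets did not overlap. Mybl2 (B-Myb), which acts before Foxm1 on the same genes, differed by 1.45, E2f1 by 1.01 and E2f2 by 0.97.

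The G1 machinery did not follow this pattern as a whole. Of its 6 members the E-type cyclins Ccne1 and Ccne2, which carry cells into S phase, were higher in replicates 1 and 2 by 0.73 and 0.44. Cyclin D2 (Ccnd2, chr6:127125162-127152193) was lower, with 207 to 312 CPM (median 272) in replicates 1 and 2 against 307 to 381 CPM (median 323) in replicates 3 and 4 (log2 -0.32 ± 0.06, edgeR adjusted p = 0.00122). The sets overlapped, Foxp3DN 1 being the highest of replicates 1 and 2. Ccnd3, Cdk4 and Cdk6 stood at 0.12, 0.03 and -0.12 and were not called (adjusted p = 0.218, 0.821 and 0.180). Without MockUP 2 Ccnd3 was called at 0.16 (adjusted p = 0.0478) and Cdk6 at -0.16 (adjusted p = 0.0197).

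The inhibitors divided. Cdkn1b, which encodes p27, was lower in replicates 1 and 2, at 9.97 to 20.3 CPM (median 16.9) against 17.7 to 35.2 CPM (median 23.5) in replicates 3 and 4 (log2 -0.58 ± 0.13, edgeR adjusted p = 0.00339), with overlap. Cdkn1a, which encodes p21, a target of p53, stood at -0.28 ± 0.10 (adjusted p = 0.0582) and was called without Foxp3DN 1, Foxp3DN 4, Foxp3UP 2, MockDN 1 or MockDN 4, at -0.31 to -0.33, and with DESeq2 (adjusted p = 0.0478). Cdkn3 was higher by 1.38 and Cdkn2c, which encodes p18, by 0.82. Neither Cdkn2c nor any other inhibitor or G1 gene had sets without overlap.

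**Figure D2:**
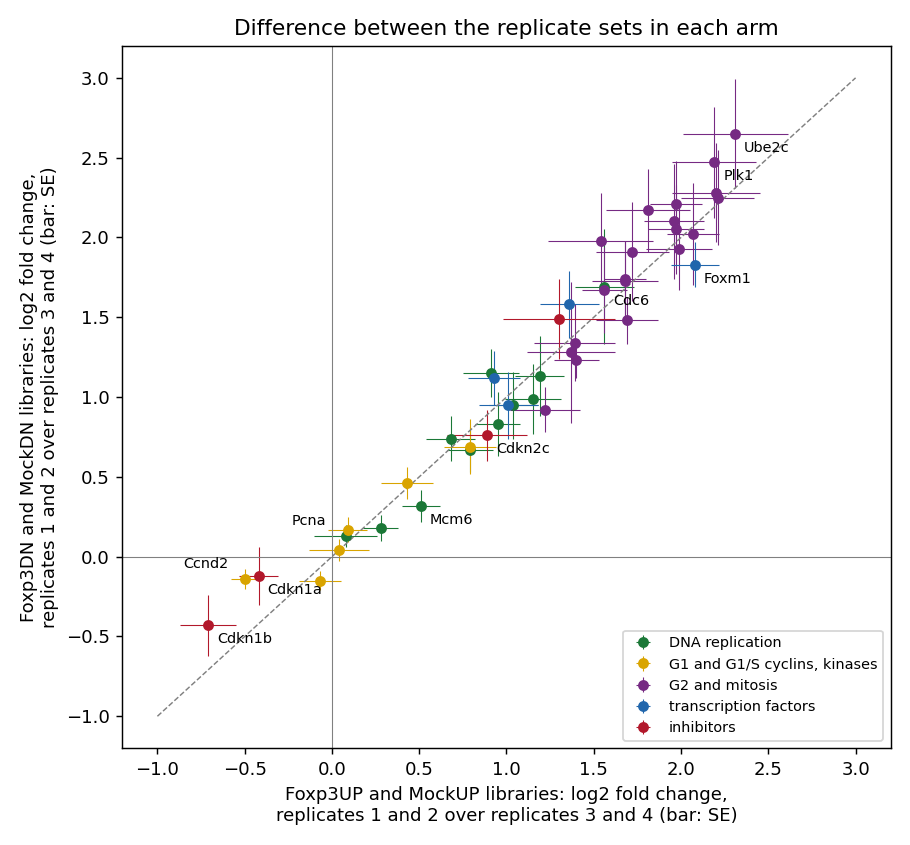
Each point is a member, placed by its log2 fold change of replicates 1 and 2 over replicates 3 and 4 in the UP arm (horizontal) and in the DN arm (vertical), with SE bars and a dashed line of equality. Mitosis genes fill the upper right, up to Ube2c at 2.31 in the UP arm and 2.65 in the DN arm, and most replication genes lie below them. Cdkn1b, Ccnd2, Cdkn1a and Cdk6 lie below 0 in both arms, but none of these was called in the DN arm alone.

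The sets differed within every group. Both libraries of replicates 1 and 2 lay above both of replicates 3 and 4 for 40 of the 45 members in Foxp3UP and 38 in MockUP, where 23.8% and 26.5% of all genes tested did so in these groups. For Foxp3DN the count was 38, beside 24.9% of all genes, and for MockDN it was 39, beside 23.7%. Fitted on the Foxp3UP and MockUP libraries alone, 36 members were higher and 3 lower, where 8.09% of genes tested were called. On the Foxp3DN and MockDN libraries alone 36 were higher and 0 lower, where 15.6% of genes were called. Cdt1 was not called in either arm alone. The 3 lower in the UP arm were Ccnd2, Cdkn1b and Cdkn1a. For Cdkn1a the log2 difference was -0.42 in the UP arm and -0.12 in the DN arm. All 40 members called over the 16 libraries were also called when any 1 library was left out. The 16 libraries are not all independent, since same-numbered Foxp3 and Mock libraries of an arm deviated together. With the counts of each such pair summed, and 4 sums set against 4 with a term for the arm, 37 members were higher and 2 lower, where 18.2% of genes were called and 9.83% were higher. Cdt1 was the member that lost its call, at 0.22 (edgeR adjusted p = 0.0651). Dependence between libraries of different arms was not tested, and no label says whether a set is a single experiment. The adjusted p of the set comparisons thus measure the spread within the sets only.

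Averaged over their members, the roles were read library by library on the log2 CPM scale, without a test. The mean level of the mitosis genes was 5.40 to 6.64 in replicates 1 and 2 and 3.49 to 4.74 in replicates 3 and 4. For the replication genes these ranges were 6.66 to 7.49 and 5.82 to 6.53, and for the transcription factors 4.49 to 5.53 and 3.21 to 4.23. The G1 genes overlapped, at 6.59 to 7.03 and 6.57 to 6.83, as did the inhibitors, at 4.18 to 5.25 and 4.16 to 4.95. The mean of mitosis minus the mean of replication was -1.25 to -0.77 in replicates 1 and 2 and -2.33 to -1.72 in replicates 3 and 4, so the mitosis genes were lower relative to the replication genes in all 8 libraries of replicates 3 and 4. Taken within groups, replicates 1 and 2 exceeded replicates 3 and 4 in this difference by 0.95 for the Foxp3UP libraries, 0.92 for MockUP, 1.00 for Foxp3DN and 1.13 for MockDN.

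**Figure D3:**
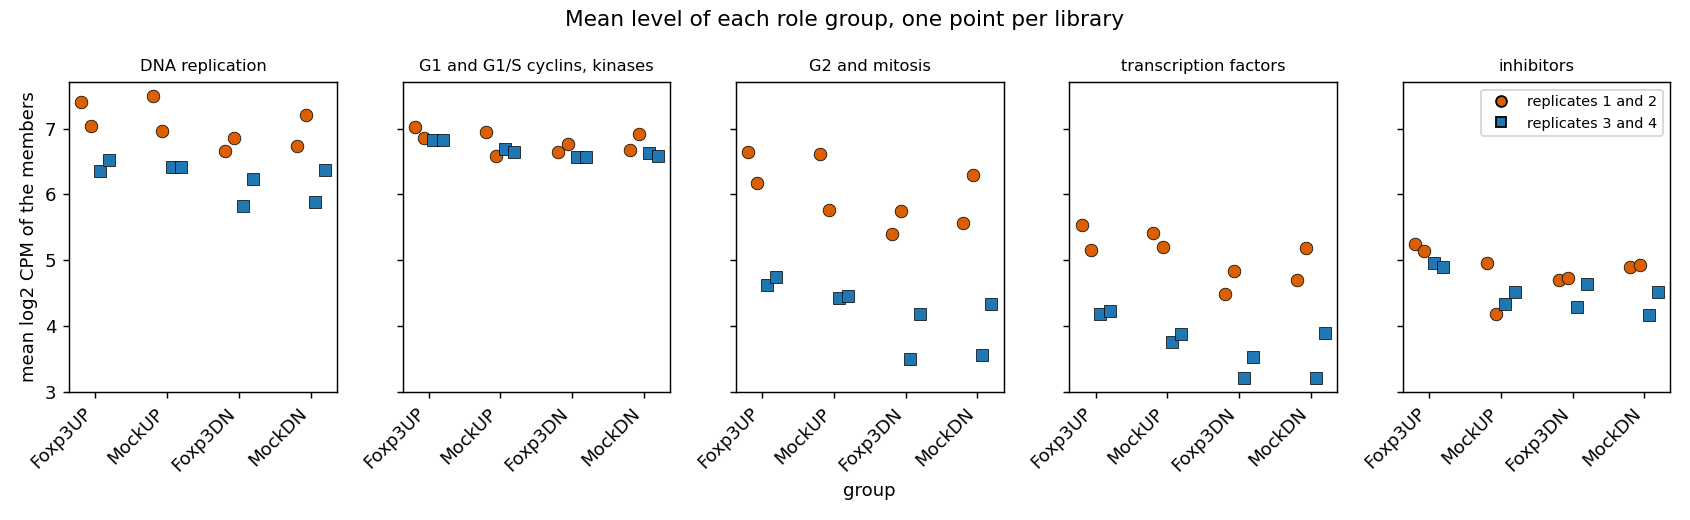
Each point is the mean log2 CPM of 1 role in 1 library, with a panel per role, groups along the horizontal axis, circles for replicates 1 and 2 and squares for replicates 3 and 4. Circles and squares are apart in every group for replication, mitosis and transcription factors, and the mitosis means span 3.49 to 6.64.

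Markers of other cells were read beside these differences. The T cell markers summed to 3571 to 5922 CPM (median 5473) in replicates 1 and 2 and to 5493 to 6585 CPM (median 6208) in replicates 3 and 4, with 3 of the 7 lower in replicates 1 and 2. Melanocyte markers summed to 18.4 to 76.0 CPM (median 49.9) and 21.4 to 110 CPM (median 58.4), with 0 of 4 tested called. Myeloid markers summed to 39.7 to 79.7 CPM (median 53.4) and 38.2 to 66.1 CPM (median 45.8), with 1 of 9 tested higher and 1 lower. Of all genes tested, 13.4% were higher in replicates 1 and 2 and 12.5% were lower. The part of these markers in the differences between the sets was not tested.

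Foxp3UP cells were next compared with MockUP cells, the question being which cell cycle genes differ between these groups. Only 1 of the 45 members, Ccnd3, was called, a share of 2.22% against 12.1% of all genes tested. The median log2 fold change of the members was 0.08, with 35 positive and 10 negative, and the median over all genes tested was 0.00. Without Foxp3UP 1 the median of the members was -0.22, without MockUP 3 it was -0.07 and without MockUP 4 it was -0.08. Without MockUP 1 it was 0.45. Leaving out 1 library also leaves the replicate sets unequal between the groups. With the replicate number as a term the median was 0.11. Within replicates 1 and 2 alone it was 0.08, and within replicates 3 and 4 alone 0.15. The intervals of the mitosis genes were wide, and the sets differ within each of these groups: Mki67 stood at 0.06 with a 95% interval of -1.29 to 1.41, and Ube2c at 0.55 with an interval of -1.45 to 2.56.

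Cyclin D3 (Ccnd3, ENSMUSG00000034165, chr17:47505051-47599691), a D-type cyclin on which dividing lymphocytes depend, had 285, 243, 268 and 261 CPM in Foxp3UP replicates 1 to 4 and 228, 171, 185 and 169 CPM in MockUP replicates 1 to 4. All 4 Foxp3UP libraries lay above all 4 MockUP libraries. No other member had groups without overlap, in either direction, where 15.9% of all genes tested did. The means were 264 ± 17.7 CPM in Foxp3UP and 188 ± 27.5 CPM in MockUP (SD, n = 4 each), a 1.40-fold difference (log2 0.49 ± 0.11 SE, edgeR adjusted p = 0.00803). In the DN arm it had 190, 212, 181 and 173 CPM in Foxp3DN and 184, 226, 200 and 175 CPM in MockDN, with overlap and a log2 fold change of -0.05 that was not called.

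The call for Ccnd3 held when any 1 library was left out, with log2 fold changes of 0.43 to 0.59 and edgeR adjusted p between 0.00178 and 0.0365, and at 0.44 (adjusted p = 0.0186) without MockUP 2. Within replicates 3 and 4 it was 0.55 (adjusted p = 0.000114), and within replicates 1 and 2 it was 0.40 and not called (adjusted p = 0.270). With only the 8 libraries of the UP arm it was 0.47 (adjusted p = 0.0545). Bysl, which overlaps Ccnd3 on the other strand, stood at -0.04 ± 0.10 and was not called. The sources used here do not give whether the counting used strand.

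Same-numbered libraries of an arm deviated together, so fits that block on them were set beside these values. In the UP arm their correlations were 0.213 to 0.63. Libraries of the same set with different numbers reached an overlapping 0.0444 to 0.364 there. With the replicate number as a block, 4 members (8.89%) were called, all higher in Foxp3UP (17.6% of all genes called). They were Ccnd3, Ccnd2, Cdkn1b and Cdkn2c. With the 8 pairs of arm and number as the block, 11 members (24.4%) were called, all higher in Foxp3UP, against 25.3% of all genes in either direction and 13.3% in that direction.

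The inhibitor Cdkn2c (chr4:109660876-109667189), which binds Cdk4 and Cdk6, had 40.2, 25.2, 19.4 and 20.2 CPM in Foxp3UP and 27.8, 14.3, 10.9 and 9.30 CPM in MockUP, replicates 1 to 4. The groups overlapped, yet in each of the 4 same-numbered pairs the Foxp3UP library was higher, by 0.53 to 1.10 on the log2 scale. Its log2 fold change was 0.75 ± 0.35 (edgeR adjusted p = 0.184), and 0.80 ± 0.15 with the block of 8 pairs (adjusted p = 0.00176). With no block, leaving out 1 library gave 0.45 (adjusted p = 0.498) without Foxp3UP 1 and 1.19 (adjusted p = 0.0232) without MockUP 1, the only such call. With the block but without MockUP 2 it was 0.76 (adjusted p = 0.000223).

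Cdkn1b (chr6:134920401-134925513), which holds cyclin E and Cdk2 in check, had 17.0, 20.3, 28.5 and 30.4 CPM in Foxp3UP and 14.9, 9.97, 18.9 and 24.3 CPM in MockUP. It too was higher in the Foxp3UP library of every pair, with a log2 fold change of 0.50 ± 0.27 (edgeR adjusted p = 0.257) that became 0.52 ± 0.15 with the block of 8 pairs (adjusted p = 0.0214). The Cdkn1b value leaned on MockUP 2, without which it was 0.31 with no block (adjusted p = 0.512) and 0.37 with the block of 8 pairs (adjusted p = 0.0289), and with the replicate set as a term it was not called (adjusted p = 0.0639). Ccnd2 had 273, 271, 381 and 375 CPM in Foxp3UP and 227, 207, 316 and 311 CPM in MockUP. Here the pair differences were 0.26 to 0.39, and the fold change of 0.29 ± 0.15 (adjusted p = 0.208) passed at 0.30 ± 0.05 with the block (adjusted p = 0.00124). Ccnd2 and Cdkn1b are thus members that were lower in replicates 1 and 2 and, under the block, higher in Foxp3UP. Taken by arm, the lower level was called in the UP arm, at -0.50 and -0.71. In the DN arm it was -0.14 and -0.43 and was not called.

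**Figure D4:**
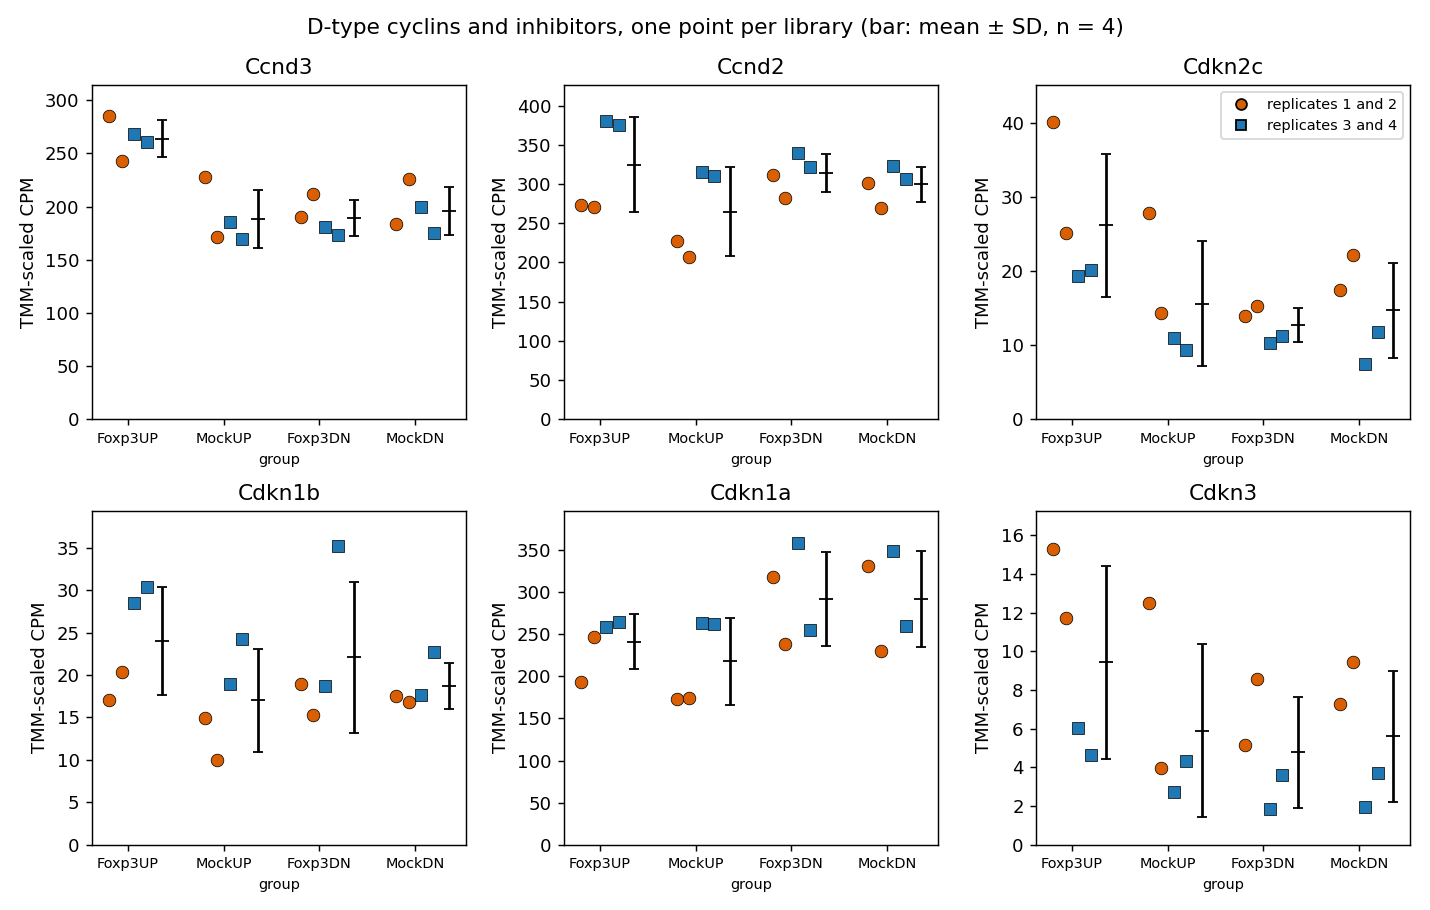
CPM of the D-type cyclins Ccnd3 and Ccnd2 and the inhibitors Cdkn2c, Cdkn1b, Cdkn1a and Cdkn3 in each library (circles: replicates 1 and 2, squares: replicates 3 and 4), with the mean ± SD of each group (n = 4) as a black bar. The 4 Foxp3UP points of Ccnd3 lie between 243 and 285 CPM, above the MockUP points at 169 to 228 CPM, while for the other 5 genes the groups overlap.

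The other members called with the block of 8 pairs were Cdkn3 at 0.75, the mitosis genes Ube2c at 0.62, Cenpf at 0.61, Birc5 at 0.55, Ccnb2 at 0.43 and Aurkb at 0.24, and E2f2 at 0.48 (edgeR adjusted p = 0.00629 to 0.0489). Several of these values leaned on pair 2, and so on MockUP 2. The pair differences of Birc5 were 0.22, 1.39, 0.30 and 0.28, those of Ube2c 0.19, 1.35, 0.43 and 0.46, and those of Cdkn3 0.29, 1.51, 1.09 and 0.10. With no block, leaving out 1 library moved Birc5 between 0.07 and 1.27, Ube2c between 0.01 and 1.55 and Cdkn3 between 0.34 and 1.37, lowest without Foxp3UP 1 and highest without MockUP 1, and none of these was called.

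With the block of 8 pairs but without MockUP 2, an alternative added after seeing the data, 10 members were higher and 1 lower, against 30.1% of all genes called and 15.1% higher. Of the 11 members called with all libraries 9 were also called here. Birc5 then stood at 0.26, Ube2c at 0.30, Cenpf at 0.46, Ccnb2 at 0.29 and E2f2 at 0.65. Cdkn3, at 0.44 (edgeR adjusted p = 0.074), and Aurkb, at 0.19 (adjusted p = 0.103), were not called, while Cdk6 was called higher at 0.20 and Cdk4 lower at -0.27.

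Over the members as a whole, 16 were higher in the Foxp3UP library of all 4 same-numbered pairs, beside 20.9% of all genes tested, and 0 were lower in all 4, beside 17.4%. None of the replication genes was called with the block of 8 pairs, and these stood between -0.13 and 0.08 with no block. Within replicates 3 and 4 alone 6 members were called, where 22.2% of genes were. Higher were Cdkn2c at 0.94, E2f2 at 0.87, Ccnd3, Cdk6 at 0.31 and Ccnd2 at 0.25, and Cdk4 was lower at -0.43 (adjusted p = 0.000431). Within replicates 1 and 2 alone 0 members were called, and 0.221% of genes.

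Cdk4 and Cdk6 are alternative partners of the D-type cyclins. Cdk4 had 295, 241, 207 and 223 CPM in Foxp3UP and 295, 185, 286 and 284 CPM in MockUP. In replicates 3 and 4 both Foxp3UP libraries lay below both MockUP libraries, whereas in replicate 2 the order was the reverse, with MockUP 2 lowest of the 16 libraries. Over all libraries Cdk4 stood at -0.12 (edgeR adjusted p = 0.630) and Cdk6 at 0.10 (adjusted p = 0.570).

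Myeloid markers summed to 57.3 to 79.7 CPM (median 63.2) in Foxp3UP and 38.2 to 58.6 CPM (median 42.2) in MockUP. Of 9 tested 1, Cd68, was called higher, where 12.1% of all genes were called in either direction. Cd68 had 20.3 to 29.2 CPM in Foxp3UP and 9.87 to 16.6 CPM in MockUP. Csf1r went the other way, at 5.40 to 6.72 CPM against 6.36 to 8.83 CPM. Melanocyte markers summed to 51.6 to 110 CPM (median 76.8) in Foxp3UP and 48.1 to 73.5 CPM (median 59.7) in MockUP, with 0 of 4 tested called. The part of these markers in the differences between Foxp3UP and MockUP was not tested.

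In Foxp3DN against MockDN 0 members were called, and 0.00729% of genes tested, a single gene. At an unadjusted p under 0.05 there were 0 members and 143 genes with edgeR, and DESeq2 also called 0 members and 1 gene. The members had a median of -0.25, with 43 of 45 negative, where the median over all genes tested was 0.00. The mitosis genes stood between -0.51 for Cdk1 and -0.15 for Kif23 and the replication genes between -0.33 for Mcm5 and 0.00 for Pcna.

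Pair by pair, 23 members were lower in the Foxp3DN library of all 4 same-numbered pairs and 1, Ccnd2, was higher in all 4. Of all genes tested 7.96% were lower in all 4 pairs and 7.58% higher. Cdk1 had 32.7, 40.1, 6.56 and 11.3 CPM in Foxp3DN and 38.5, 68.4, 8.69 and 13.7 CPM in MockDN. Foxm1 had 18.5, 21.4, 5.55 and 6.69 CPM in Foxp3DN and 23.5, 30.0, 5.99 and 8.21 CPM in MockDN. In both genes the Foxp3DN library was the lower of every pair, while the groups overlapped. The groups overlapped for all 45 members, where 1.15% of all genes tested did not. With the block of 8 pairs 18 members had an unadjusted p under 0.05, as did 548 of all genes, but 0 members passed the adjustment. Without MockUP 2, a library that enters this contrast only through the shared spread, scaling and filter, 6 members were called with that block, all lower in Foxp3DN, against 0.172% of all genes and 0.0933% in that direction. They were Cdk1 at -0.47, Bub1b at -0.45, Ccnb2 at -0.35, Birc5 at -0.34, Mcm5 at -0.31 and Mcm7 at -0.28 (edgeR adjusted p = 0.0279 to 0.0471). With no block the median was 0.14 without MockDN 2, which leaves the replicate sets unequal between the groups. It was -0.20 with the replicate number as a block and -0.21 with the block of 8 pairs. Within replicates 1 and 2 alone it was -0.31, and within replicates 3 and 4 alone -0.11.

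**Figure D5:**
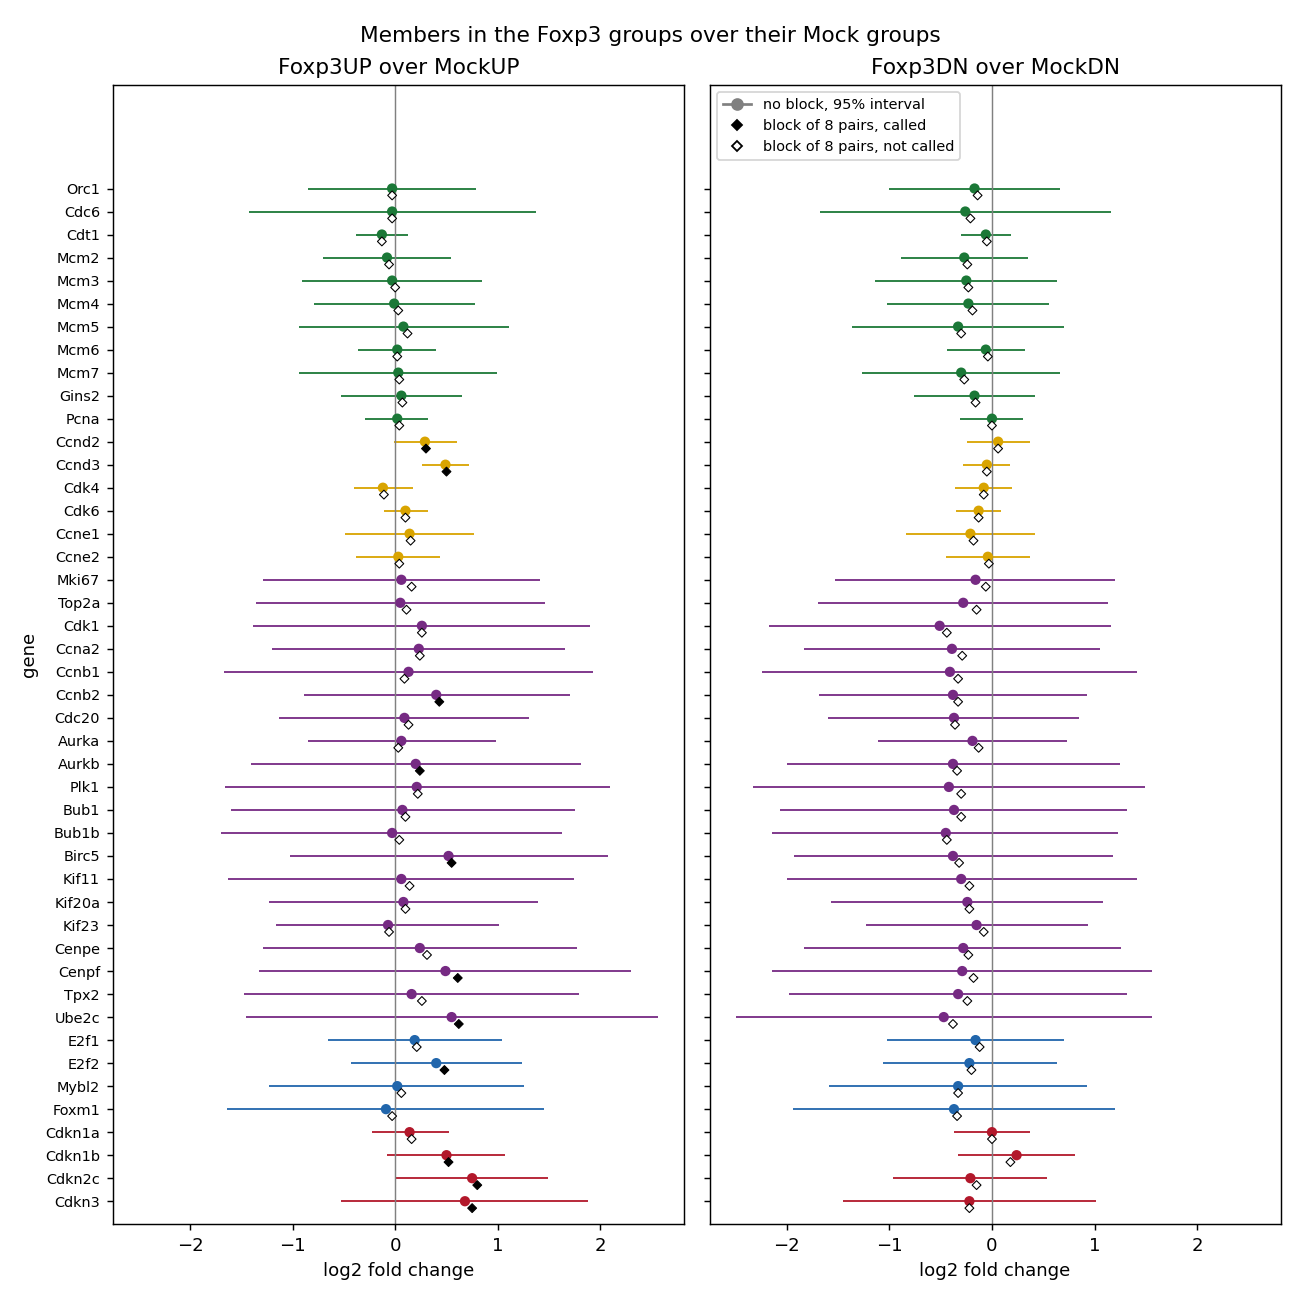
For each member, the coloured point and line give the log2 fold change and its 95% interval without a block, and the diamond below it the value with the block of 8 pairs, filled where called, for Foxp3UP over MockUP (left) and Foxp3DN over MockDN (right). In the left panel 11 diamonds are filled, all above 0, and in the right panel none is, with most points below 0.

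The difference between the effects in the arms was tested directly. With no block 0 members were called, and 1.83% of genes, with 1 member at an unadjusted p under 0.05 in edgeR. Ccnd3 had the smallest p, at a difference of 0.54 ± 0.15 (edgeR adjusted p = 0.0797), and it passed with DESeq2 (adjusted p = 0.0334), with the number block (0.55, edgeR adjusted p = 0.0351, 5.91% of genes called) and without MockUP 1 (0.65, adjusted p = 0.0193). Leaving out any other single library it was 0.46 to 0.60 and not called. With the block of 8 pairs 11 members were called, all with a higher effect in the UP arm, a share of 24.4% against 12.7% of all genes and 6.53% for that direction.

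Those 11 were Ccnd3 and Cdkn2c, Mcm5, and the mitosis genes Ube2c, Birc5, Ccnb2, Cdk1, Aurkb, Cenpe, Ccna2 and Cdc20. Their differences ran from 0.42 for Mcm5 to 1.01 for Ube2c. Ube2c, for example, stood at 0.62 in the UP arm and at -0.38 in the DN arm in that fit. Without MockUP 2 the block of 8 pairs called 22 members, all with a higher effect in the UP arm and the 11 among them, against 21.9% of all genes and 10.9% for that direction. There Ube2c differed by 0.72 and Mcm5 by 0.43. The median difference of the members without a block was 0.34, and it was -0.06 without MockDN 2 and 0.04 without Foxp3UP 1. With all libraries it was 0.34 with the number block and 0.33 with the block of 8 pairs.

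Between the control groups, MockUP and MockDN, 0 members were called, and 0.00729% of genes tested. With edgeR 1 member, Cdkn1a, had an unadjusted p under 0.05, as did 433 genes, and DESeq2 called 0 members and 10 genes. Cdkn1a had 173, 174, 264 and 262 CPM in MockUP and 331, 230, 349 and 260 CPM in MockDN, a log2 difference of -0.42 (edgeR adjusted p = 0.999). The groups overlapped for it and for every other member, where 1.85% of genes tested did not. The members' median was 0.28, with 40 of 45 positive, and it was -0.11 without MockUP 1. With all libraries and the number block it was 0.28.

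Other genes of the cell cycle, listed beside the members, were read in the same comparisons. Between the replicate sets their counts stand beside 25.9% of all genes called and 13.4% higher, as given above. Of 36 further S phase genes 32 were higher in replicates 1 and 2 and 0 lower, with a median log2 difference of 0.85. The 6 with the smallest adjusted p were E2f8, an E2F repressor, at 2.19, Mcm10, which helps start replication forks, at 1.67, Clspn (claspin), a checkpoint mediator, at 1.63, the ribonucleotide reductase subunits Rrm2 at 1.61 and Rrm1 at 1.20, and Uhrf1, which maintains DNA methylation, at 1.26. Of 40 further G2 and mitosis genes 36 were higher and 1 lower, with a median of 1.46. Nusap1, a spindle protein, led the 6 with the smallest adjusted p at 2.46, with the kinesin Kif2c at 2.27, Cdca2 at 1.87, Prc1, which bundles the central spindle, at 1.84, the condensin subunit Ncapd2 at 1.62 and Hjurp, a chaperone of centromeric histone, at 0.92.

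Of 31 listed brakes and checkpoint genes 30 were tested, with 12 higher, 1 lower and a median of 0.18, where 13.4% of all genes were higher and 25.9% called. E2f7, a partner of E2f8, stood at 1.40, Pkmyt1, an inhibitory kinase of Cdk1, at 0.73, Rbl1, of the retinoblastoma family, at 0.70, Cdk2 at 0.65, Lin54, the subunit through which mitotic gene complexes bind the CHR, at 0.61, and Fzr1, an activator of the anaphase-promoting complex, at 0.40. Of 10 p53 targets tested, from 11 listed, 1 was higher, Gtse1, which is itself a gene of G2 and mitosis, at 0.90. Lower were Sesn2 at -0.44 and the pro-apoptotic genes Bax at -0.44 and Bbc3 at -0.38. With 4 of 10 called beside 25.9% of all genes, nothing is read from the number of these targets.

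In Foxp3UP against MockUP the calls in these lists were read beside the 12.1% of all genes that were called. Of the 36 further S phase genes Ung, a uracil DNA glycosylase, was lower at -0.85 ± 0.20 (edgeR adjusted p = 0.00897) and Cdca7 lower at -0.56 ± 0.14 (adjusted p = 0.0128), with 0 higher. None of the 40 G2 and mitosis genes was called, and 2 had an unadjusted p under 0.05 with edgeR. Of the 30 brakes and checkpoint genes tested, Cdkn2b, which encodes the Cdk4 and Cdk6 inhibitor p15, was higher at 0.82 ± 0.23 (adjusted p = 0.0290) and Ccng2, an atypical cyclin linked to arrest, higher at 0.35 ± 0.09 (adjusted p = 0.0134). E2f5, a repressor E2F, was lower at -0.54 ± 0.16 (adjusted p = 0.0352). These 3 of 30 are a share near that of all genes. Of the 10 p53 targets 0 were called, 2 of them with an unadjusted p under 0.05 with edgeR. In Foxp3DN against MockDN, in the difference between the arms and in MockUP against MockDN these 4 lists held 0 calls with edgeR, with at most 3 genes of any list at an unadjusted p under 0.05. Cks1b, Ccng1 and Gtse1 stand in more than 1 of the lists.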

How the data were processed

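RNA-seq counts per gene, which the authors deposited as 1 table for the 16 libraries, were the starting point. Alignment and counting used STAR 2.6.1 and Subread 1.6.3 with the mm10 build, per the submitters' processing notes. The options, strand setting and annotation release are not stated there. Columns were tied to libraries by the sample numbers in the titles. Symbols came from a table of gene names for 55394 of 55573 identifiers, and promoters from RefSeq GRCm38.p6.

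Genes were filtered with filterByExpr at a minimum count of 10, scaled with TMM and tested with edgeR 4.0.16 (robust quasi-likelihood F test, R 4.3.3), in 1 fit of all 16 libraries with a term per group. The replicate-set comparison added a term for the set. P-values were adjusted by Benjamini-Hochberg over the 13711 genes tested and called under 0.05. Log2 CPM used a prior count of 2. Library totals were 9389477 to 13226590 counts. Over all genes tested the median SE on the log2 fold change of Foxp3UP over MockUP was 0.18. For the mitosis genes this SE was 0.43 to 0.93. The fits without a block and the set comparison were tested on simulated counts of independent libraries. These held no pairing, and no difference between the replicate sets except where it was planted for the set comparison. The blocks were not simulated, so the simulation does not cover the spread between the sets seen here.

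The members, roles and pathway lists were chosen with earlier results of these data known. The members the results turn on are given by library, or by the lowest, median and highest value of each replicate set, and the others by their fold change or range. Named from each pathway list are the called genes, at most 6 per comparison by adjusted p. Same-numbered Foxp3 and Mock libraries correlated in their deviations from the group means at 0.213 to 0.63 in the UP arm. In the DN arm this was 0.298 to 0.582. Differently numbered libraries of the same replicate set correlated at 0.0444 to 0.364 in the UP arm and 0.172 to 0.237 in the DN arm. The ranges thus overlap in the UP arm. The numbers were taken to pair the libraries, which the labels do not state. Alternatives were other scalings and filters, DESeq2 1.42.0, leaving out each library, the block, each replicate set alone and the 8 compared libraries alone. The block of 8 pairs, with and without MockUP 2, and the set comparison within each arm and on the sums of the 8 pairs were added after seeing the data.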

Additional observations from a re-analysis of the deposited data

Results flagged for a closer look

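Dixon's test at the 95% level flagged 5 of the 180 sets of 4 libraries (45 members in each of 4 groups). In these the highest or lowest library lay far from the other 3. The chance rate of this test, about 1 in 20, assumes 4 draws from a single population. Each group here holds libraries of both replicate sets, which lay apart for most members, so the count of flags is not compared with that rate. Of these 5, 4 were in MockUP. Cdk4 was lowest in MockUP 2 at 185 CPM, against 284 to 295 CPM in the other MockUP libraries, and Cdk6 was highest in MockUP 2 at 145 CPM, against 117 to 121 CPM. Birc5 was highest in MockUP 1 at 136 CPM, against 33.5 to 42.2 CPM, and Cdkn3 was highest in MockUP 1 at 12.5 CPM, against 2.73 to 4.33 CPM. Foxp3UP 1 and 2 were also high, at 159 and 111 CPM for Birc5 and 15.3 and 11.7 CPM for Cdkn3. MockUP 2 was the lowest of replicates 1 and 2 for both genes, at 42.2 and 3.99 CPM, within the range of replicates 3 and 4. Cdkn1b was highest in MockDN 4 at 22.7 CPM, against 16.8 to 17.7 CPM in the other MockDN libraries.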

How the results depend on the processing

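For Foxp3UP against MockUP 1 member was called, 1 to 2 when a library was left out, 4 with the replicate block, 3 with the replicate set as a term, 0 with only replicates 1 and 2, 6 with only replicates 3 and 4, 0 with only the 8 libraries compared, 11 with the block of 8 pairs and 11 with that block without MockUP 2. All genes called were 1654, against 1064 to 1978, 2408, 2567, 31, 3025, 658, 3475 and 4196 under these settings in the same order. For the difference between the arms 0 members were called, 0 to 1 when a library was left out, 1 with the replicate block, 1 with the set as a term, 4 with only replicates 3 and 4, 11 with the block of 8 pairs, 22 with that block without MockUP 2 and 1 with DESeq2. All genes called were 251, against 99 to 518, 811, 938, 1688, 1739, 3051 and 666, and 2 with only replicates 1 and 2. The number block changed no member's call for Foxp3DN against MockDN or MockUP against MockDN, where 0 members were called under any setting run, except 6 in Foxp3DN against MockDN with the block of 8 pairs without MockUP 2 (24 genes, against 1). Between the replicate sets 40 members were called, and 40 to 43 when a library was left out. The number block could not be fitted there, since the sets are made of the numbers, so the pairing was kept by summing the 8 pairs, which called 39 members (2492 genes, against 3550). No result changed sign while called in the settings run. Role means per library moved by at most 0.01 with RLE size factors and by -0.05 to 0.08 with library totals on the log2 scale. The cause of these changes in calls was not tested.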

Other observations

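MockUP 2 differed from Foxp3UP 2, its same-numbered library, in a way that was loosely related to gene length. Over the 45 members the log2 difference of MockUP 2 minus Foxp3UP 2 had a correlation of 0.35 with log2 exonic length, from -1.51 for Cdkn3 to 0.47 for Foxm1. For MockUP 1 minus Foxp3UP 1 it was 0.105, from -0.53 for Cdkn2c to 0.16 for Cdt1. Cenpf, the longest member, went against the relation, being higher in Foxp3UP 2 than in MockUP 2 by 0.8. The other pairs were not read in this way. Genes are not independent replicates, so these values describe the libraries only.

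Of the 45 members, 22 overlap another gene in the annotation and 18 overlap one on the other strand, so their counts can hold reads of a neighbour if the counting ignored strand.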
